A study of Mus musculus with 9 samples.

Results

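The expression of 37 genes of the lysosome and its control was followed in 9 RNA-seq libraries of mouse CD4+ T cells. The genes were a given list of symbols. It comprised the 3 MiT/TFE transcription factors, 3 regulators that act on them at the lysosomal surface, and 31 genes for lysosomal membrane proteins, hydrolases, lipid-handling proteins, subunits of the proton pump and an autophagy receptor. All 37 symbols were matched through GENCODE M21 to an identifier among the 47937 in the count table, and all 37 passed the filter on low counts that left 12536 genes for testing.

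The libraries formed 3 groups of 3, with replicates numbered 1, 4 and 5. CD62L-bearing CD4+ T cells were isolated on magnetic beads from C57BL/6 spleens. TEPP-46 cells were activated by plate-bound antibodies to CD3 and CD28 after 15 min with TEPP-46 at 50 to 100 µM. This range is given for every TEPP-46 library, and the dose of each is not stated. TEPP-46 is a small-molecule activator of pyruvate kinase M2, an enzyme of the last step of glycolysis. Control cells were activated in the same way after 15 min with the solvent DMSO, and the third group is labelled resting. The length of activation, whether resting cells were cultured, and whether replicates came from separate animals are not stated in the labels, so p-values measure the spread between these libraries, which may be technical. The comparisons ask which transcripts differ with TEPP-46 in activated cells and which differ between activated and resting cells.

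Lysosomes are acidic compartments in which hydrolases break down proteins, glycans, lipids and nucleic acids delivered by endocytosis and autophagy. The MiT/TFE factors bind E-box sequences in promoters of lysosomal and autophagy genes, the so-called CLEAR network. When amino acids are plentiful, the kinase complex mTORC1 is recruited to the lysosome by Rag GTPases, phosphorylates these factors and holds them in the cytosol. The folliculin complex sets the nucleotide state of the Rag GTPases in this step. In T cells, activation switches on mTORC1 and growth, and secretory granules share many proteins with lysosomes. Because the factors are controlled mainly by phosphorylation and location, their transcript levels are no measure of their activity.

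Levels are in CPM (counts per 1000000, scaled with TMM factors) and follow the order of replicates 1, 4 and 5. A comparison is given as a log2 fold change ± SE with its adjusted p, from the quasi-likelihood test of edgeR fitted to all 9 libraries. Adjustment was by Benjamini-Hochberg over the 12536 genes, and a gene passed at an adjusted p below 0.05. Total counts ran from 2397304 to 5030643 per library, and a level resting on 3 counts corresponded to 0.596 to 1.25 CPM. TEPP-46 replicate 4 had the lowest total, and resting replicate 1 and TEPP-46 replicate 4 stood apart from their groups. TEPP-46 replicate 1 was close to control libraries, with correlations of log2 CPM of 0.919 to 0.922 with them. Its correlations with TEPP-46 replicates 4 and 5 were 0.818 and 0.914, and that between replicates 4 and 5 was 0.896. The median SD of log2 CPM among TEPP-46 libraries was 0.33 over the 37 genes and 0.52 over all genes tested. Among control libraries it was 0.14 and 0.20, and among resting libraries 0.32 and 0.31. Exons of Lamp1, Sqstm1, Hexa, Atp6v1h, Ctsz and Ctsl overlap a gene on the other strand and those of Ctsd and Glb1 one on the same strand, so their counts are uncertain where reads fall in shared bases, the library kit being one that does not mark strand. Markers of NK cells summed to 84.9 to 106 CPM in TEPP-46, 77.1 to 132 CPM in control and 34.8 to 175 CPM in resting libraries, and those of CD8 T cells to 3.88 to 11.3 CPM in TEPP-46, 8.07 to 10.1 CPM in control and 9.05 to 22.2 CPM in resting libraries. T cell identity genes (Cd3d, Cd3e, Cd4, Lck and 5 others) were read in every library, with summed levels of 7476 to 9416 CPM in TEPP-46, 4690 to 6269 CPM in control and 5030 to 9146 CPM in resting libraries.

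The E-box that MiT/TFE factors bind was looked up in the RefSeq promoter windows of the listed genes (GRCm38.p6, 250 bases before to 50 after each annotated start). A window was found for 32 of the 37 genes and not for Npc1, Ctsb, Ctsh, Atp6v1b2 and Atp6v1h. The palindromic E-box CACGTG, searched on both strands, was present in a window of 13 of these 32 genes (40.6%), against 1092 of 9013 tested genes with a window (12.1%). The longer form TCACGTG, which overlaps it, was present in 12 of 32 listed genes (37.5%), against 655 of 9013 (7.27%). The M-box core CATGTG was present in 5 of 32 (15.6%), against 922 of 9013 (10.2%). Since the list was drawn up as lysosomal genes, in which this E-box is known to be common, these shares are a description of the list. They say nothing of binding in these cells.

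The 6 stretches shown run from 110 bases before to 30 after a start, 5′ to 3′ on the gene's strand, and are examples of the 13 genes with the E-box: 4 that fell in control over resting cells (Lamp1, Ctsa, Ctsd and Atp6v0d1), Mcoln1 with 2 copies, and Fnip1 as a regulator. Capitals mark CACGTG on either strand and, in Ctsa, 1 CATGTG read on the other strand. The first 5 belong to lysosomal genes and the last to a regulator of the Rag GTPases.
Lamp1 (chr8:13159051-13159190, + strand): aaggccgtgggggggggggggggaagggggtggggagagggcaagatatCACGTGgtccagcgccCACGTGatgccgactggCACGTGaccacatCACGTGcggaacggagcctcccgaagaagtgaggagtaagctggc
Ctsa (chr2:164833663-164833802, + strand): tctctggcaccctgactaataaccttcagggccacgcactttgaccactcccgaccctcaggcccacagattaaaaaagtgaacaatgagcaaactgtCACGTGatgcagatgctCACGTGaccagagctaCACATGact
Ctsd (chr7:142387798-142387937, - strand): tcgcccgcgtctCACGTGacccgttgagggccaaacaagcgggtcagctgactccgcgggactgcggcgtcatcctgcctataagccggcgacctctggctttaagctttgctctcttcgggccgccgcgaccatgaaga
Mcoln1 (chr8:3500409-3500548, + strand): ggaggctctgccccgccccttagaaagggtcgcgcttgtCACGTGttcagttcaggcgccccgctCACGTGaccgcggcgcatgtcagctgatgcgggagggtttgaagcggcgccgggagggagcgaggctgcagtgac
Atp6v0d1 (chr8:105566035-105566174, - strand): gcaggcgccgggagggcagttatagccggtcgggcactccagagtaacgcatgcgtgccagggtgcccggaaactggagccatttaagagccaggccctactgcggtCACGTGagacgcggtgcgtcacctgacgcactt
Fnip1 (chr11:54438069-54438208, + strand): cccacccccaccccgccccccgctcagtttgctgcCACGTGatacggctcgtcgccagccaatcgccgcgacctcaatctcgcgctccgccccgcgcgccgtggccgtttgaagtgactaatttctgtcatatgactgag

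Lamp1 held 4 copies within 61 bases before its start. Ctsa has a window at each of 2 annotated starts, and the 2 copies shown flank the downstream start, at -12 and 6. Mcoln1 had copies at -71 and -45, and Ctsd at -98 and, outside the stretch shown, at -245. Atp6v0d1 and Fnip1 had 1 copy each. No CACGTG was in the windows of Rragd, Ctsz, Hexa, Lipa, Atp6v1d, Psap, Sqstm1, Tfeb, Tfe3 or Mitf, which says only that these letters are not in those windows. Of the genes described below, the E-box was in 3 of the 6 that rose and 1 of the 3 that fell with TEPP-46, and in 4 of the 7 that rose and 4 of the 11 that fell in control over resting cells.

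**Figure D1:**
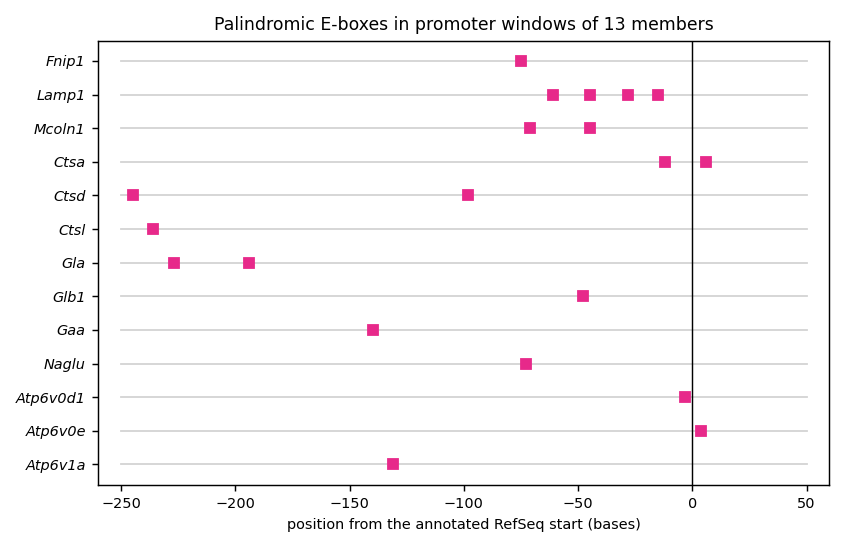
Positions of the palindromic E-box in the RefSeq promoter windows of the 13 listed genes that hold it. The x axis is the distance in bases from the annotated start (vertical line), each square is the first base of a copy, and grey lines span the window of 300 bases. Lamp1 has 4 copies, and Ctsa, which is drawn on its downstream start, has 2.

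With TEPP-46, 6 of the 37 genes rose and 3 fell relative to control cells, and in control cells 7 rose and 11 fell relative to resting cells. The genes that rose with TEPP-46 were Lamp1, Ctsa, Hexa, Lipa, Atp6v0d1 and Atp6v1d, and those that fell were Fnip1, Rragd and Ctsz. Of all genes tested, 9.72% rose and 6.43% fell in this comparison, so 16.2% and 8.11% of the list stood beside them. In control relative to resting cells, 18.9% of the list rose and 29.7% fell, beside 15.5% and 15.8% of all genes. The share of listed genes that fell with TEPP-46 and the share that rose in control cells were thus close to those of all genes and are no result about the list. In either direction, 16.2% of all genes passed with TEPP-46 and 31.2% in control over resting cells. Groups did not overlap for 17 of the 37 genes with TEPP-46, 11 of them higher, where 39.7% of all genes did so. They did not overlap for 25 genes in control over resting cells, 9 of them higher, where 59.2% of all genes did so. The median log2 fold change of the list was 0.24 with TEPP-46 and -0.37 in control over resting cells, against 0.04 and -0.04 for all genes.

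These counts moved with single libraries, left out 1 at a time here and below, and so did those of all genes. With TEPP-46, 1219 of 12536 genes rose with all libraries, 2274 of 12982 without TEPP-46 replicate 1 and 258 of 12956 without control replicate 5. In control over resting cells, 1976 of 12536 genes fell with all libraries and 1175 of 12935 without control replicate 4. Counts of the list and of the further groups below are to be read beside these. With TEPP-46, 12 listed genes rose without TEPP-46 replicate 1, but 3 did without resting replicate 4 or 5, 2 without control replicate 1 or TEPP-46 replicate 5 and 1 without control replicate 4 or 5. The falls numbered 1 without control replicate 4. In control over resting cells, 5 fell without resting replicate 4 or control replicate 1, 7 without resting replicate 5, 4 without control replicate 4 and 6 without control replicate 5, and 4 rose without control replicate 4 or 5. With resting replicate 1 and TEPP-46 replicate 4 both left out, a choice made after seeing the data, 9 rose and 5 fell with TEPP-46, and 9 rose and 13 fell in control over resting cells. Scaling by total counts moved the median of all genes from -0.04 to 0.07 in control over resting cells and from 0.04 to -0.09 with TEPP-46, and with that scaling 43.8% of all calls with TEPP-46 were rises, against 60.2% with TMM. That share in control over resting cells was 58.2%, against 49.5% with TMM. With total counts or with RLE scaling 3 listed genes rose with TEPP-46, and with total counts 7 fell in control over resting cells. No listed gene changed direction in a comparison in which it passed, under any setting tried.

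Summed over the 37 genes, levels were 6241, 5327 and 6675 CPM in TEPP-46 libraries, 4163, 4377 and 4540 CPM in control libraries and 5402, 5625 and 5362 CPM in resting libraries. Each control library thus lay below every TEPP-46 and every resting library. By role, this held for membrane proteins, lipid-handling proteins, V-ATPase subunits and Sqstm1. Cathepsins summed to 1201 to 1317 CPM in control libraries but 1179 CPM in resting replicate 1. Glycosidases overlapped, with 343 to 391 CPM in TEPP-46, 313 to 378 CPM in control and 262 to 361 CPM in resting libraries. Sums of the MiT/TFE factors overlapped between control and resting libraries, and those of the 3 regulators were highest in control libraries. A CPM is a share of its library, so less RNA of lysosomal genes per cell and more RNA of other genes per cell cannot be told apart.

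None of the 3 MiT/TFE transcription factors passed the test in any of the 3 comparisons in edgeR (0 at an unadjusted p below 0.05), and 0 did in DESeq2 or limma-voom. Tfeb (chromosome 17, 47737030 to 47792419, GRCm38), the best studied activator of lysosomal genes, had 26.4, 54.6 and 22.3 CPM in TEPP-46, 31.1, 33.1 and 27.2 CPM in control and 20.9, 30.6 and 48.2 CPM in resting libraries. The groups overlapped, and 1 TEPP-46 library and 1 resting library were the highest. Its log2 fold change was 0.17 ± 0.39, adjusted p = 0.789 with TEPP-46 (95% interval -0.70 to 1.03) and -0.12 ± 0.39, adjusted p = 0.832 in control over resting cells (-0.98 to 0.73). With 3 libraries a group, any difference inside these intervals remains compatible with the data.

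Tfe3 (chromosome X, 7762560 to 7775202), a close relative with overlapping targets, had 77.8, 64.3 and 68.3 CPM in TEPP-46, 54.0, 51.4 and 44.1 CPM in control and 111, 40.4 and 46.3 CPM in resting libraries. Every TEPP-46 library lay above every control library, and resting replicate 1 was far above the other resting libraries. The log2 fold changes of Tfe3 were 0.49 ± 0.35, adjusted p = 0.341 with TEPP-46 and -0.40 ± 0.35, adjusted p = 0.401 in control over resting cells. With both resting replicate 1 and TEPP-46 replicate 4 left out, its TEPP-46 over resting value passed (log2 fold change 0.75, adjusted p = 0.0429, against 0.09 and 0.898 with all libraries). Mitf (chromosome 6, 97807052 to 98021349), best known from pigment cells, was the lowest of the factors, with 2.48, 2.10 and 5.50 CPM in TEPP-46, 2.21, 4.56 and 4.29 CPM in control and 5.63, 5.81 and 4.76 CPM in resting libraries. Every resting library was above every control library, at a log2 fold change of -0.55 ± 0.49, adjusted p = 0.424. Its counts ran from 5 to 28 per library, which leaves wide error.

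Of the 3 regulators of the factors, Fnip1 and Rragd rose in control over resting cells and fell with TEPP-46, while Flcn passed in neither. Rragd (chromosome 4, 32983037 to 33022180), a Rag GTPase that with folliculin directs mTORC1 toward the MiT/TFE factors and is itself a known target of them, had 4.95, 5.46 and 3.88 CPM in TEPP-46, 32.4, 30.7 and 37.6 CPM in control and 5.43, 5.28 and 3.25 CPM in resting libraries. The control libraries lay far above all 6 others, and the TEPP-46 and resting libraries overlapped. Its level was 7.03-fold lower with TEPP-46 than in control cells (log2 fold change -2.81 ± 0.33, adjusted p = 0.00189) and 7.18-fold higher in control than in resting cells (2.84 ± 0.32, adjusted p = 0.000398). TEPP-46 over resting, the value was 0.03 ± 0.34, adjusted p = 0.964 (95% interval -0.72 to 0.78). Both calls held under every setting tried, DESeq2 and limma-voom among them.

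Fnip1 (chromosome 11, 54438199 to 54518235), a partner of folliculin, had 92.7, 74.4 and 84.1 CPM in TEPP-46, 161, 254 and 204 CPM in control and 63.4, 41.5 and 38.9 CPM in resting libraries. Control libraries were again the highest, and here every TEPP-46 library was above every resting library. Fnip1 was 2.46-fold lower with TEPP-46 than in control cells (-1.30 ± 0.25, adjusted p = 0.0102) and 4.30-fold higher in control than in resting cells (2.10 ± 0.26, adjusted p = 0.000611). The call with TEPP-46 was lost without control replicate 4 at adjusted p = 0.0515. Over resting cells the TEPP-46 value was 0.80 ± 0.25, adjusted p = 0.0707, and it passed without resting replicate 1 at adjusted p = 0.0328 and with DESeq2 at adjusted p = 0.0335. Flcn (chromosome 11, 59791408 to 59810016), which encodes folliculin itself, had 67.9, 152 and 141 CPM in TEPP-46, 71.1, 75.4 and 93.8 CPM in control and 171, 112 and 98.4 CPM in resting libraries. Control libraries lay below resting libraries, and TEPP-46 replicate 1 was low while replicates 4 and 5 were above every control library. Its values were 0.59 ± 0.32, adjusted p = 0.223 with TEPP-46 and -0.66 ± 0.32, adjusted p = 0.139 in control over resting cells. They passed with TEPP-46 without TEPP-46 replicate 1 at adjusted p = 0.0243 and in control over resting cells without TEPP-46 replicate 1 at adjusted p = 0.0411 and with a fit of the compared groups alone at adjusted p = 0.047.

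**Figure D2:**
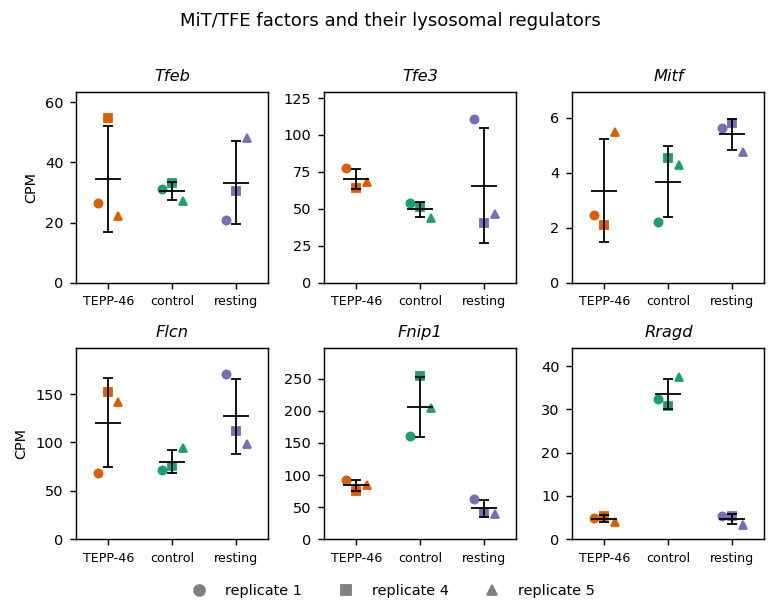
CPM of the 3 MiT/TFE factors (top) and 3 regulators (bottom) in TEPP-46, control and resting libraries. Points are libraries with the replicate number as the shape, and bars are mean ± SD (n = 3). Fnip1 and Rragd are highest in the 3 control libraries, while the groups of Tfeb overlap.

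Among 5 lysosomal membrane proteins, Lamp1 rose with TEPP-46 and fell in control over resting cells. Lamp1 (chromosome 8, 13159161 to 13175338), an abundant glycoprotein of the limiting membrane and the gene with 4 E-boxes shown above, had 285, 274 and 257 CPM in TEPP-46, 151, 124 and 148 CPM in control and 263, 229.5 and 245 CPM in resting libraries. The control libraries were below all others, and TEPP-46 and resting libraries overlapped. It was 1.93-fold higher with TEPP-46 than in control cells (0.94 ± 0.18, adjusted p = 0.00911) and 1.74-fold lower in control than in resting cells (-0.80 ± 0.18, adjusted p = 0.0077). The call with TEPP-46 was lost without control replicates 4 or 5 at adjusted p of 0.0519 to 0.0576. Lamp2 (chromosome X, 38401357 to 38456454), its relative needed for fusion with autophagosomes, did not pass, with 95.2, 50.0 and 77.3 CPM in TEPP-46, 52.0, 52.6 and 54.5 CPM in control and 90.1, 51.5 and 38.9 CPM in resting libraries. Its groups overlapped, with a log2 fold change of 0.49 ± 0.33, adjusted p = 0.316 with TEPP-46. With both resting replicate 1 and TEPP-46 replicate 4 left out, Lamp2 rose in TEPP-46 over control and over resting cells.

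Npc1, the transporter that exports cholesterol from the lysosome (chromosome 18, 12189692 to 12236400), had 76.7, 117 and 91.6 CPM in TEPP-46, 77.0, 80.7 and 82.7 CPM in control and 59.1, 49.1 and 51.9 CPM in resting libraries. All 6 activated libraries were above the resting libraries. It rose in TEPP-46 over resting cells (0.83 ± 0.21, adjusted p = 0.0331), a call lost without TEPP-46 replicates 4 or 5, control replicates 1, 4 or 5 or resting replicates 4 or 5 at adjusted p of 0.0512 to 0.13 and with no filter on low counts or a fit of the compared groups alone at adjusted p of 0.0618 to 0.112. The value was 0.58 ± 0.21, adjusted p = 0.0531 in control over resting cells, which passed without TEPP-46 replicates 1 or 4 at adjusted p of 0.0218 to 0.0233 and with DESeq2, limma-voom, RLE scaling, total counts as the only scaling or a fit of the compared groups alone at adjusted p of 0.011 to 0.0482. Npc1 shares 511 exonic bases with Rmc1 on the other strand, and reads there cannot be assigned to 1 strand, since the library kit named in the labels does not mark it.

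Cd63, a tetraspanin of late endosomes and granules (chromosome 10, 128900989 to 128912822), had 3.30, 17.2 and 2.59 CPM in TEPP-46, 20.1, 8.64 and 9.83 CPM in control and 4.63, 2.11 and 1.08 CPM in resting libraries. Control libraries were above resting libraries, and TEPP-46 replicate 4 was high while replicates 1 and 5 were not. Cd63 rose in control over resting cells (2.27 ± 0.78, adjusted p = 0.0483), which was lost without control replicates 1, 4 or 5 or resting replicates 4 or 5 at adjusted p of 0.0734 to 0.168. With TEPP-46 the value was -0.78 ± 0.74, adjusted p = 0.486, and Cd63 passed as a fall with resting replicate 1 and TEPP-46 replicate 4 both left out. Reads of Cd63 could be shared with its pseudogene Cd63-ps, which held 6 counts over all libraries. Cd63 is also a protein of platelet granules. Markers of platelets and red cells, 7 genes, summed to 16.8, 271 and 84.4 CPM in TEPP-46, 4.91, 1.20 and 3.78 CPM in control and 5.43, 10.6 and 3.03 CPM in resting libraries, and 2 of them were at 0 in TEPP-46, 5 in control and 2 in resting libraries. The platelet gene Pf4 was at 0 in control libraries. Their part in the Cd63 values was not tested. Mcoln1, a calcium channel of the lysosomal membrane, had 62.4, 83.2 and 89.9 CPM in TEPP-46, 42.2, 64.3 and 50.9 CPM in control and 73.8, 66.8 and 62.7 CPM in resting libraries and passed in no comparison (0.58 ± 0.23, adjusted p = 0.105 with TEPP-46). It passed with TEPP-46 without TEPP-46 replicate 1 at adjusted p = 0.029.

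The 8 cathepsins moved in different directions. With TEPP-46, Ctsa rose and Ctsz fell, and in control over resting cells Ctsz rose while Ctsa, Ctsd and Ctss fell. Ctsa (chromosome 2, 164832873 to 164841032), a serine carboxypeptidase that also protects the sialidase and beta-galactosidase of the lysosome, had 220.3, 356 and 434 CPM in TEPP-46, 64.8, 93.1 and 76.9 CPM in control and 144, 222 and 197 CPM in resting libraries. Control libraries were the lowest, and TEPP-46 replicates 4 and 5 lay above every other library. Ctsa was 4.30-fold higher with TEPP-46 than in control cells (2.10 ± 0.29, adjusted p = 0.00288), the largest rise among the listed genes that passed, and 2.40-fold lower in control than in resting cells (-1.26 ± 0.28, adjusted p = 0.00827). Both calls held under every setting tried. The gene shares 324 exonic bases with Neurl2 and 495 with Pltp on the other strand, whose mean levels were at most 4.59 and 10.6 CPM in any group.

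Ctsz (chromosome 2, 174427493 to 174439039), a cysteine carboxypeptidase, ran opposite to Ctsa, with 141, 74.4 and 99.7 CPM in TEPP-46, 209.5, 201 and 201 CPM in control and 65.0, 84.5 and 80.9 CPM in resting libraries. The control libraries were nearly equal and above all others. It was 1.94-fold lower with TEPP-46 than in control cells (-0.96 ± 0.24, adjusted p = 0.0269) and 2.66-fold higher in control than in resting cells (1.41 ± 0.24, adjusted p = 0.00251). The first call was lost without TEPP-46 replicate 5 or control replicates 1, 4 or 5 at adjusted p of 0.0862 to 0.0967. Markers of dendritic cells, 8 genes, were also highest in control libraries and in TEPP-46 replicate 1, with sums of 150.1 to 798 CPM in TEPP-46, 546 to 673 CPM in control and 50.3 to 138 CPM in resting libraries. Irf8 made up 684, 161 and 119.7 CPM of these in TEPP-46, 604, 496 and 471 CPM in control and 23.7, 45.2 and 31.4 CPM in resting libraries. Of the 8 genes, 3 were at 0 in control libraries (Itgax, Clec9a and Siglech), 1 in TEPP-46 and 0 in resting libraries. The part of these markers in the values of Ctsz and of the other genes that rose in control cells was not tested.

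Ctsd (chromosome 7, 142375911 to 142388038), the main aspartic protease of lysosomes, had 319.8, 398 and 393 CPM in TEPP-46, 239.6, 222 and 263 CPM in control and 359, 516 and 429.6 CPM in resting libraries. Control libraries were below both other groups. It fell in control over resting cells (-0.85 ± 0.20, adjusted p = 0.0111), lost without control replicate 4 or resting replicate 4 at adjusted p of 0.0507 to 0.0564, and stood at 0.62 ± 0.20, adjusted p = 0.063 with TEPP-46, which passed without TEPP-46 replicate 1 or resting replicate 1 at adjusted p of 0.0218 to 0.041 and with DESeq2 at adjusted p = 0.0249. Ctss (chromosome 3, 95526786 to 95556403), a protease best known for antigen processing in B and myeloid cells, had 137, 117 and 112 CPM in TEPP-46, 113, 95.8 and 98.3 CPM in control and 121, 197 and 187 CPM in resting libraries. Resting replicates 4 and 5 were the highest and resting replicate 1 was near the TEPP-46 libraries. Ctss fell in control over resting cells (-0.72 ± 0.22, adjusted p = 0.033), a call lost without control replicates 1, 4 or 5 or resting replicates 4 or 5 at adjusted p of 0.07 to 0.124 and with total counts as the only scaling or no filter on low counts at adjusted p of 0.06 to 0.0715.

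Markers of B cells were highest in the same group. These 11 genes summed to 1239, 2818 and 1109 CPM in TEPP-46, 848, 595 and 738 CPM in control and 3450.5, 3454 and 4435 CPM in resting libraries, and 1 of them was at 0 in control libraries. Markers of myeloid cells, 14 genes, summed to 174, 184 and 147 CPM in TEPP-46, 118, 107 and 100.3 CPM in control and 115, 182 and 145 CPM in resting libraries. Of these, 2 were at 0 in TEPP-46, 5 in control and 0 in resting libraries. Fewer such cells and less RNA of these genes per cell cannot be told apart in bulk libraries, and their part in the results for Ctss was not tested. Ctsh (chromosome 9, 90054152 to 90076089), a cysteine protease with aminopeptidase activity, was near the counting limit in several libraries, with 0.825, 13.4 and 1.62 CPM in TEPP-46, 0.491, 0.240 and 1.76 CPM in control and 2.21, 9.51 and 4.54 CPM in resting libraries. TEPP-46 replicate 4 was high and the other TEPP-46 libraries were not, and control libraries held 2, 1 and 7 counts. Ctsh did not pass (-2.66 ± 1.10, adjusted p = 0.0907 in control over resting cells, 2.58 ± 1.12, adjusted p = 0.136 with TEPP-46), though it passed in control over resting cells without TEPP-46 replicate 4 at adjusted p = 0.0211 and with DESeq2 or no filter on low counts at adjusted p of 0.0329 to 0.0475 and with TEPP-46 without TEPP-46 replicate 1 at adjusted p = 0.0418. Markers of neutrophils, 6 genes, summed to 1.38, 132 and 4.21 CPM in TEPP-46, 0, 0.240 and 0.250 CPM in control and 100.0, 147 and 116 CPM in resting libraries, with 2 at 0 in TEPP-46, 5 in control and 1 in resting libraries, and their part in the Ctsh values was not tested.

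The remaining cathepsins showed no call in any comparison. Ctsb, an abundant cysteine protease, had 587, 419 and 644 CPM in TEPP-46, 535, 476 and 563 CPM in control and 356, 484 and 482 CPM in resting libraries, with log2 fold changes of 0.07 ± 0.22, adjusted p = 0.855 with TEPP-46 and 0.25 ± 0.22, adjusted p = 0.417 in control over resting cells. It shares 774 exonic bases with the sterol synthesis gene Fdft1 on the other strand, which averaged 101 CPM in TEPP-46, 170.0 CPM in control and 43.5 CPM in resting libraries. Ctsc, which activates granule proteases, had 122, 132 and 133 CPM in TEPP-46, 138, 104 and 99.3 CPM in control and 117, 166 and 135 CPM in resting libraries. Ctsl, another cysteine protease, had 13.5, 6.72 and 10.7 CPM in TEPP-46, 13.2, 7.92 and 12.6 CPM in control and 14.3, 7.13 and 9.09 CPM in resting libraries. The groups overlapped in all 3 genes.

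**Figure D3:**
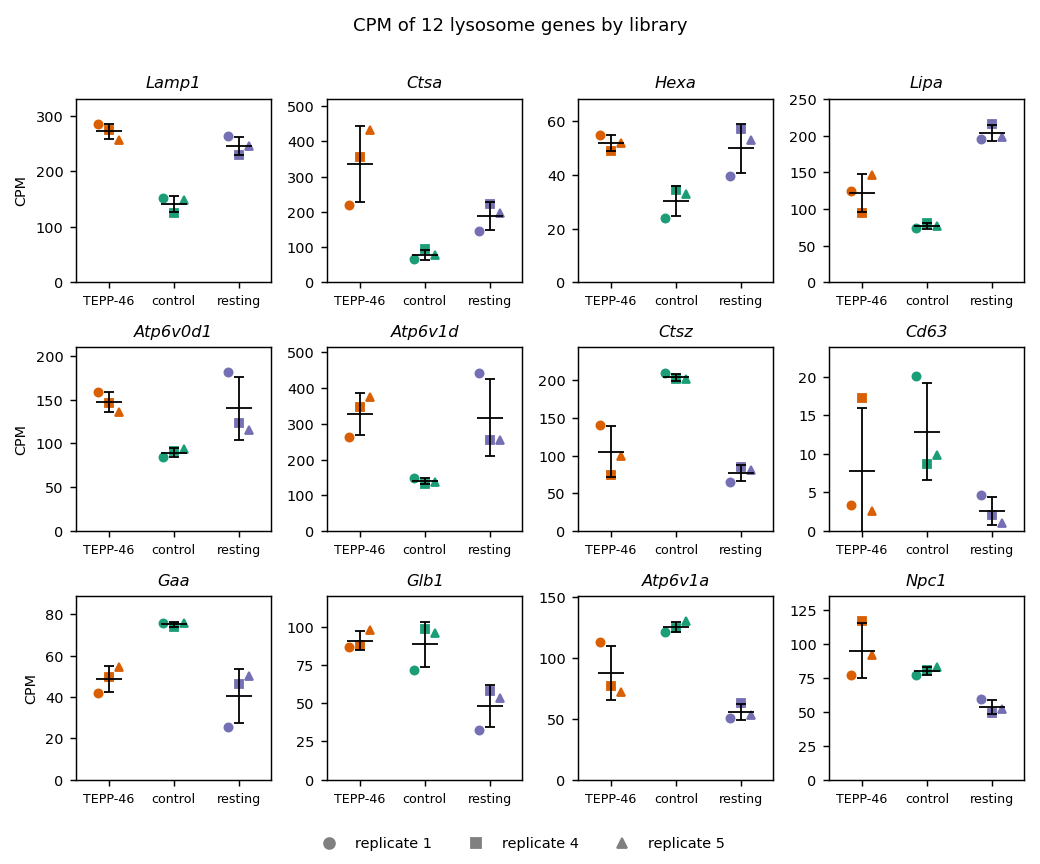
CPM of 12 lysosome genes in TEPP-46, control and resting libraries. Points are libraries with the replicate number as the shape, and bars are mean ± SD (n = 3). The first 6 genes are lowest in control libraries, and Ctsz, Gaa and Atp6v1a are highest there.

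Of 7 glycosidases, Hexa rose with TEPP-46, and in control over resting cells Glb1 and Gaa rose while Hexa and Neu1 fell. Hexa (chromosome 9, 59539540 to 59565109), the alpha subunit of beta-hexosaminidase, had 55.0, 48.7 and 51.8 CPM in TEPP-46, 24.0, 34.3 and 32.8 CPM in control and 39.6, 57.0 and 53.0 CPM in resting libraries. Control libraries were below all others. Its rise with TEPP-46 was at the threshold (0.77 ± 0.24, adjusted p = 0.0497) and was lost without TEPP-46 replicates 4 or 5, control replicates 1, 4 or 5 or resting replicates 4 or 5 at adjusted p of 0.0547 to 0.182 and with RLE scaling, total counts as the only scaling, no filter on low counts or a fit of the compared groups alone at adjusted p of 0.0566 to 0.118. Its fall in control over resting cells (-0.71 ± 0.24, adjusted p = 0.0413) was lost without TEPP-46 replicate 5, control replicates 1, 4 or 5 or resting replicates 4 or 5 at adjusted p of 0.0534 to 0.158 and with total counts as the only scaling or no filter on low counts at adjusted p of 0.0672 to 0.116. Neu1 (chromosome 17, 34931253 to 34935953), the lysosomal sialidase that Ctsa protects, had 56.4, 86.5 and 113 CPM in TEPP-46, 59.1, 67.9 and 66.5 CPM in control and 105, 120.4 and 105 CPM in resting libraries. The resting libraries were above the control libraries, and the TEPP-46 libraries overlapped both groups. It fell in control over resting cells (-0.77 ± 0.25, adjusted p = 0.0387), lost without control replicates 1, 4 or 5 or resting replicates 1, 4 or 5 at adjusted p of 0.0605 to 0.126 and with total counts as the only scaling or no filter on low counts at adjusted p of 0.0589 to 0.0705, and with TEPP-46 it stood at 0.40 ± 0.25, adjusted p = 0.278, passing without TEPP-46 replicate 1 at adjusted p = 0.031.

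Gaa (chromosome 11, 119267887 to 119285454), which breaks down glycogen in the lysosome, had 41.8, 49.6 and 54.4 CPM in TEPP-46, 76.0, 73.7 and 75.9 CPM in control and 25.6, 46.2 and 50.0 CPM in resting libraries. Control libraries were the highest and nearly equal. Gaa rose in control over resting cells (0.89 ± 0.26, adjusted p = 0.0272), lost without control replicates 1, 4 or 5 or resting replicate 4 at adjusted p of 0.0536 to 0.0809, and with TEPP-46 it was -0.63 ± 0.26, adjusted p = 0.121, passing without resting replicate 1 at adjusted p = 0.041. Glb1 (chromosome 9, 114401076 to 114474898), the lysosomal beta-galactosidase, had 86.9, 88.2 and 98.0 CPM in TEPP-46, 71.9, 98.4 and 96.0 CPM in control and 32.8, 58.1 and 53.6 CPM in resting libraries. All 6 activated libraries lay above the resting libraries. It rose in control (0.88 ± 0.25, adjusted p = 0.0219) and in TEPP-46 cells (0.92 ± 0.25, adjusted p = 0.0428) over resting cells, and TEPP-46 and control cells differed by 0.04 ± 0.24, adjusted p = 0.93 (95% interval -0.51 to 0.58). The call over resting cells was lost for control cells without control replicates 4 or 5 at adjusted p of 0.0803 to 0.0815 and for TEPP-46 cells without TEPP-46 replicate 5, control replicates 1, 4 or 5 or resting replicates 1, 4 or 5 at adjusted p of 0.0613 to 0.102 and with a fit of the compared groups alone at adjusted p = 0.111.

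Gla, Gusb and Naglu passed in no comparison. Gla, an alpha-galactosidase, had 20.6, 18.1 and 7.12 CPM in TEPP-46, 18.4, 19.4 and 21.9 CPM in control and 22.7, 8.45 and 6.27 CPM in resting libraries, with resting replicate 1 above the other resting libraries, and it passed in control over resting cells without resting replicate 1 at adjusted p = 0.0487. Gusb, a beta-glucuronidase, had 48.4, 30.7 and 34.9 CPM in TEPP-46, 50.3, 57.6 and 54.5 CPM in control and 25.9, 45.2 and 45.9 CPM in resting libraries, and its control libraries lay above all others. Naglu, an enzyme of heparan sulfate breakdown, had 34.1, 31.1 and 32.0 CPM in TEPP-46, 13.7, 26.4 and 20.7 CPM in control and 9.86, 25.4 and 31.4 CPM in resting libraries, with every TEPP-46 library above every control library (0.68 ± 0.40, adjusted p = 0.26).

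All 3 lipid-handling genes averaged higher in TEPP-46 than in control libraries, and 1, Lipa, passed the test. Lipa and Psap fell in control over resting cells. Lipa (chromosome 19, 34492318 to 34527474), the acid lipase that frees cholesterol and fatty acids in the lysosome, had 125, 94.1 and 146 CPM in TEPP-46, 73.3, 80.7 and 76.4 CPM in control and 195, 216 and 198 CPM in resting libraries. The 3 groups did not overlap, with TEPP-46 libraries between control and resting libraries. Lipa was 2.64-fold lower in control than in resting cells (-1.40 ± 0.20, adjusted p = 0.00121), a call that held under every setting. It was 1.59-fold higher with TEPP-46 than in control cells (0.67 ± 0.20, adjusted p = 0.0475) and was 1.67-fold lower in TEPP-46 than in resting cells (-0.74 ± 0.20, adjusted p = 0.0443). The rise was lost without TEPP-46 replicate 5, control replicates 1, 4 or 5 or resting replicates 4 or 5 at adjusted p of 0.0765 to 0.166 and with RLE scaling, total counts as the only scaling, no filter on low counts or a fit of the compared groups alone at adjusted p of 0.0534 to 0.124, and the difference from resting cells without TEPP-46 replicate 4, control replicates 1, 4 or 5 or resting replicates 1, 4 or 5 at adjusted p of 0.061 to 0.144 and with no filter on low counts or a fit of the compared groups alone at adjusted p of 0.0845 to 0.146.

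Psap (chromosome 10, 60277627 to 60302597), the precursor of the saposins that present sphingolipids to hydrolases, had 603, 773 and 850.5 CPM in TEPP-46, 409, 464 and 572 CPM in control and 726, 817 and 885 CPM in resting libraries. Control libraries were below all others. It fell in control over resting cells (-0.75 ± 0.22, adjusted p = 0.0254), lost without control replicates 1 or 4 or resting replicates 4 or 5 at adjusted p of 0.0679 to 0.104, and with TEPP-46 the value was 0.62 ± 0.22, adjusted p = 0.0735, which passed without TEPP-46 replicate 1 at adjusted p = 0.0184 and with DESeq2 at adjusted p = 0.0322. Npc2 (chromosome 12, 84754562 to 84773152), which hands cholesterol to Npc1, had 1461, 502 and 1266 CPM in TEPP-46, 428, 592 and 541 CPM in control and 413, 616 and 599 CPM in resting libraries. TEPP-46 replicates 1 and 5 were above every other library, while replicate 4 lay among the control and resting libraries. Its values were 1.05 ± 0.36, adjusted p = 0.0704 with TEPP-46 and 0.99 ± 0.36, adjusted p = 0.108 in TEPP-46 over resting cells. Npc2 passed with TEPP-46 without TEPP-46 replicate 4 at adjusted p = 0.00991 and with DESeq2 or no filter on low counts at adjusted p of 0.0275 to 0.0328 and over resting cells without TEPP-46 replicate 4 at adjusted p = 0.0107 and with DESeq2 or no filter on low counts at adjusted p of 0.0437 to 0.0497. Signs of RNA quality also differed between libraries. Cytosolic ribosomal protein genes summed to 39403, 9590.3 and 19696 CPM in TEPP-46, 24815, 32175 and 29256 CPM in control and 17699, 24668 and 20644 CPM in resting libraries. The nuclear RNA Malat1 had 2532, 12292 and 12824 CPM in TEPP-46, 2067, 4120.4 and 3813 CPM in control and 8385, 4373 and 5292 CPM in resting libraries. Of all libraries, TEPP-46 replicate 1 had the highest ribosomal protein sum and replicate 4 the lowest, and Malat1 was highest in TEPP-46 replicates 4 and 5. The part of these differences in the results was not tested.

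Of 7 V-ATPase subunits, the proton pump that acidifies the lysosome, Atp6v0d1 and Atp6v1d rose with TEPP-46. These 2 fell and Atp6v1a rose in control over resting cells. Atp6v1d (chromosome 12, 78840725 to 78861638), a subunit of the rotating stalk, had 263, 346 and 375 CPM in TEPP-46, 149, 133 and 137 CPM in control and 442, 254 and 256 CPM in resting libraries. Control libraries were below all others and close together. It was 2.35-fold higher with TEPP-46 than in control cells (1.23 ± 0.26, adjusted p = 0.0133) and 2.27-fold lower in control than in resting cells (-1.18 ± 0.26, adjusted p = 0.00702). The rise was lost without TEPP-46 replicate 5 or control replicates 1, 4 or 5 at adjusted p of 0.0534 to 0.069. Atp6v0d1 (chromosome 8, 105524465 to 105566047), which couples the stalk to the membrane part, had 159, 146 and 136 CPM in TEPP-46, 83.9, 91.0 and 93.8 CPM in control and 182, 123 and 115 CPM in resting libraries. Control libraries were again the lowest. It rose with TEPP-46 (0.71 ± 0.21, adjusted p = 0.0459), lost without TEPP-46 replicates 4 or 5, control replicates 1, 4 or 5 or resting replicates 4 or 5 at adjusted p of 0.0591 to 0.156 and with RLE scaling, total counts as the only scaling or no filter on low counts at adjusted p of 0.0569 to 0.0986, and fell in control over resting cells (-0.65 ± 0.21, adjusted p = 0.0419), lost without TEPP-46 replicate 5, control replicates 1, 4 or 5 or resting replicates 1 or 4 at adjusted p of 0.0544 to 0.136 and with RLE scaling, total counts as the only scaling or no filter on low counts at adjusted p of 0.0544 to 0.11.

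Atp6v1a (chromosome 16, 44085402 to 44139705), the catalytic subunit that splits ATP, moved the other way, with 113, 76.9 and 72.2 CPM in TEPP-46, 122, 125 and 130.1 CPM in control and 50.5, 62.9 and 53.0 CPM in resting libraries. Control libraries were the highest, and TEPP-46 libraries lay between control and resting libraries. It was 2.26-fold higher in control than in resting cells (1.18 ± 0.22, adjusted p = 0.00356) under every setting, and with TEPP-46 it was -0.52 ± 0.22, adjusted p = 0.12, passing without TEPP-46 replicate 1 at adjusted p = 0.0111. TEPP-46 over resting, it was 0.66 ± 0.22, adjusted p = 0.0841, passing with DESeq2 at adjusted p = 0.0399. The other 4 subunits passed in no comparison. Atp6v1b2, a non-catalytic partner of Atp6v1a, had 99.3, 187 and 129 CPM in TEPP-46, 163, 109.9 and 112 CPM in control and 191, 164 and 156 CPM in resting libraries, and its groups overlapped. Atp6v1h, a regulatory subunit, had 75.9, 78.1 and 70.2 CPM in TEPP-46, 70.9, 73.0 and 61.8 CPM in control and 82.9, 115 and 95.6 CPM in resting libraries. Its resting libraries were the highest (-0.51 ± 0.19, adjusted p = 0.0669 in control over resting cells), and it passed without TEPP-46 replicate 1 or resting replicate 1 at adjusted p of 0.0423 to 0.0455 and with a fit of the compared groups alone at adjusted p = 0.0387. Of the membrane part, Atp6v0e had 149.9, 77.7 and 139 CPM in TEPP-46, 106, 103 and 107 CPM in control and 147, 161 and 145 CPM in resting libraries. Control libraries lay below resting libraries, and TEPP-46 replicate 4 was the lowest of all. It stood at -0.52 ± 0.24, adjusted p = 0.125 in control over resting cells, passing without TEPP-46 replicate 4 at adjusted p = 0.0256 and with a fit of the compared groups alone at adjusted p = 0.0142. The proteolipid gene Atp6v0c had 76.5, 38.2 and 57.9 CPM in TEPP-46, 55.2, 47.3 and 50.4 CPM in control and 65.2, 61.3 and 52.1 CPM in resting libraries, and its groups overlapped. Its counts are uncertain because reads could be shared with the pseudogenes Atp6v0c-ps1 and Atp6v0c-ps2, which held 3 and 30 counts over all libraries.

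Sqstm1 (chromosome 11, 50199366 to 50210827), the autophagy receptor p62, which delivers ubiquitin-marked cargo and is itself degraded in the lysosome, had 437, 243 and 370.4 CPM in TEPP-46, 181, 199.7 and 216 CPM in control and 599, 355 and 298 CPM in resting libraries. Control libraries were below all others, and resting replicate 1 was the highest. It was 2.10-fold lower in control than in resting cells (-1.07 ± 0.30, adjusted p = 0.022), a call lost without control replicates 1, 4 or 5 or resting replicate 1 at adjusted p of 0.0634 to 0.0838. With TEPP-46 the value was 0.82 ± 0.30, adjusted p = 0.0849, which passed without TEPP-46 replicate 4 or resting replicate 1 at adjusted p of 0.041 to 0.0461.

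**Figure D4:**
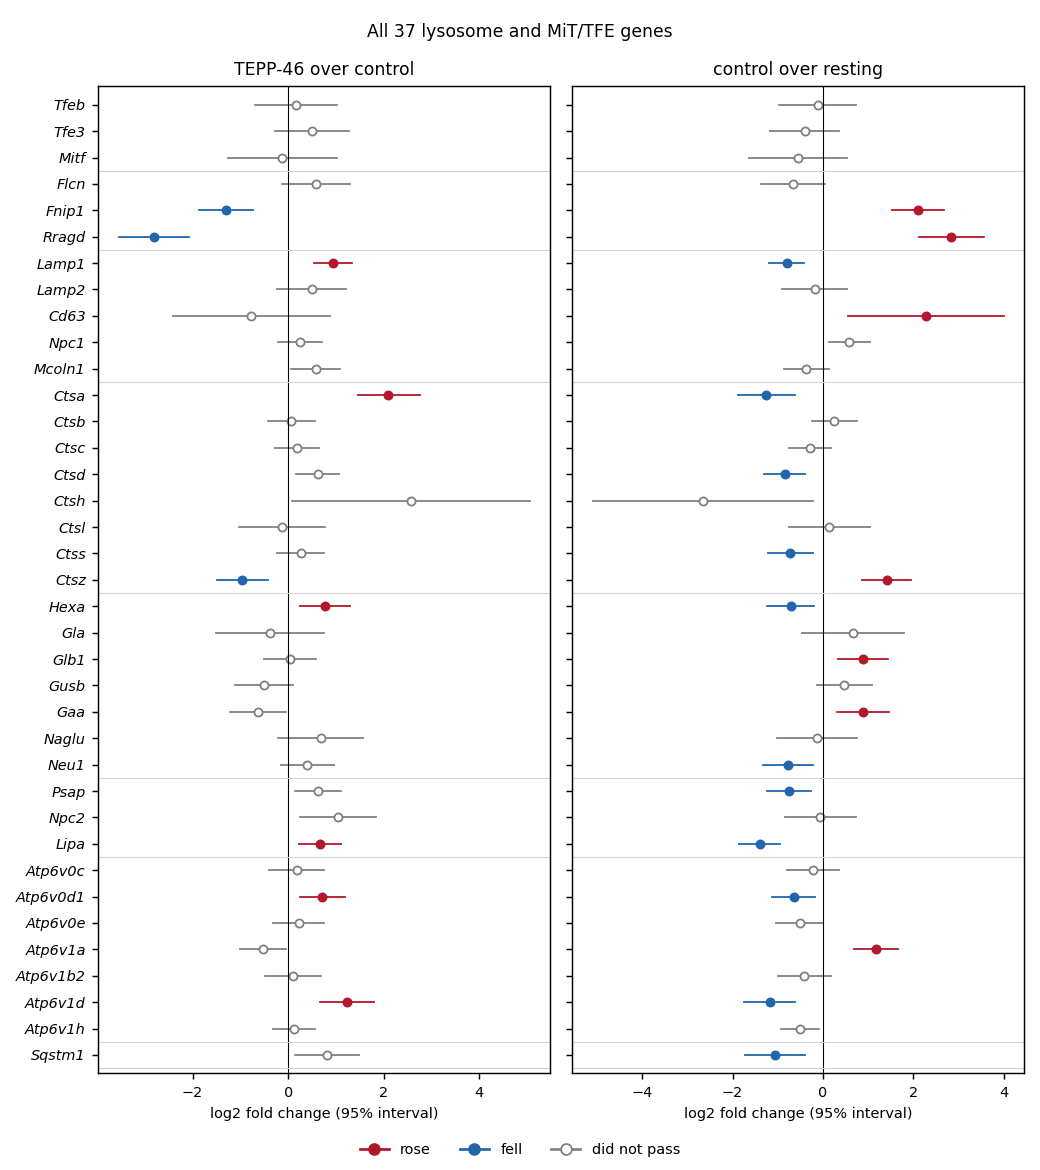
Log2 fold changes of all 37 genes for TEPP-46 over control (left) and control over resting cells (right), grouped by role. Points are edgeR estimates, bars are 95% intervals, and colour gives the call at an adjusted p below 0.05. Both panels use the same 3 control libraries, so a shift in those libraries moves the panels in opposite directions.

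Side by side, 6 genes that fell in control over resting cells rose with TEPP-46, and 3 that rose in control over resting cells fell with TEPP-46. Since the comparisons share the control libraries, these counts are no independent support for each other. The comparison of TEPP-46 with resting cells uses the control libraries only in the filter, the scaling factors and the shared estimate of spread. In it, 2 of the 37 genes rose (Npc1 and Glb1) and 1 fell (Lipa), 5.41% and 2.70% of the list beside 6.37% and 3.92% of all genes tested, of which 10.3% passed in either direction. Groups did not overlap for 6 of the 37 genes, 4 of them higher, where 26.8% of all genes did so. These shares are close to or below those of all genes. Of the 9 genes called with TEPP-46 over control cells, Lipa was the 1 that passed against resting cells. The 95% intervals of the other 8 against resting cells were -0.24 to 0.53 for Lamp1, 0.22 to 1.46 for Ctsa, -0.46 to 0.57 for Hexa, -0.40 to 0.54 for Atp6v0d1, -0.51 to 0.61 for Atp6v1d, 0.24 to 1.36 for Fnip1, -0.72 to 0.78 for Rragd and -0.08 to 0.99 for Ctsz, on the log2 scale. Ctsa passed against resting cells without TEPP-46 replicate 1 at adjusted p = 0.0176 and with DESeq2 at adjusted p = 0.0365. Without resting replicate 4 or 5, any control library or TEPP-46 replicate 5, 0 listed genes rose over resting cells.

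Levels of different genes were compared per length of merged exons, in TPM, given as mean ± SD (n = 3). Ranks by TPM depend on these merged lengths, which may not be those of the transcripts present. By mean TPM, Psap (2744 bases) was the highest of the list in every group. It had 798 ± 175 TPM in TEPP-46, 574 ± 91.4 TPM in control and 877 ± 49.0 TPM in resting cells. Npc2, with 5438 bases, was above Psap in mean CPM in TEPP-46 (1076 against 742) and control libraries (520.5 against 482). In resting libraries Npc2 was below Psap (543 against 809). Npc2 had 567 ± 239.9 TPM in TEPP-46, 312 ± 38.8 TPM in control and 296 ± 50.4 TPM in resting cells, and Ctsd had 464 ± 85.7 TPM in TEPP-46, 337 ± 33.7 TPM in control and 549.7 ± 85.0 TPM in resting cells. In control cells Ctsz, at 464 ± 28.4 TPM, came next after Psap, while it had 158 ± 15.6 TPM in resting cells. At the low end, Mitf had 1.58 ± 0.877 TPM in TEPP-46, 1.93 ± 0.620 TPM in control and 2.60 ± 0.346 TPM in resting cells. Tfeb had 18.2 ± 10.6 TPM in TEPP-46, 17.6 ± 1.73 TPM in control and 17.3 ± 6.57 TPM in resting cells, and Tfe3 had 22.1 ± 0.634 TPM in TEPP-46, 17.6 ± 2.20 TPM in control and 21.6 ± 13.8 TPM in resting cells.

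Genes of the same pathways outside the list were counted in 5 further groups. Of 25 other lysosomal hydrolases, 9 rose and 0 fell with TEPP-46 (36% and 0%, beside 9.72% and 6.43% of all genes), and 1 rose and 8 fell in control over resting cells (4% and 32%, beside 15.5% and 15.8%). Without resting replicate 5 or any 1 control library, 3 or 4 fell in control cells, and without resting replicate 4 the count was 5. Their median log2 fold changes were 0.82 and -0.44, against 0.04 and -0.04 for all genes. Man2b1, an alpha-mannosidase, had 227, 248 and 224 CPM in TEPP-46, 89.3, 109 and 90.0 CPM in control and 136, 164 and 123 CPM in resting libraries, every TEPP-46 library being above every other library, and rose with TEPP-46 (1.28 ± 0.19, adjusted p = 0.00386). The peptidase gene Tpp1 also rose (1.02 ± 0.18, adjusted p = 0.00796), lost without control replicate 5 at adjusted p = 0.0504. With 1 control library left out, 1 or 2 of the 25 rose with TEPP-46, without TEPP-46 replicate 5 the count was 4, and without resting replicate 1 and TEPP-46 replicate 4 it was 12. The asparaginyl protease gene Lgmn had the lowest adjusted p of this group in control over resting cells, with 21.4, 16.4 and 12.3 CPM in TEPP-46, 16.4, 8.64 and 8.82 CPM in control and 153, 69.2 and 69.9 CPM in resting libraries (-3.10 ± 0.42, adjusted p = 0.000903). Both activated groups lay below resting libraries, and TEPP-46 over resting it was -2.54 ± 0.41, adjusted p = 0.00583. Lgmn is also expressed by myeloid cells, whose summed markers are given above, and their part was not tested. The cathepsin gene Ctso fell too (-1.63 ± 0.35, adjusted p = 0.00656). Over resting cells, 4 hydrolase genes rose with TEPP-46 and 1, Lgmn, fell (16% and 4%, beside 6.37% and 3.92% of all genes). The share that fell was thus close to that of all genes. Without resting replicate 4 or 5, or with a fit of the compared groups alone, no hydrolase gene rose. With any 1 control library left out 1 rose, and without TEPP-46 replicate 1 the count was 6. The fucosidase gene Fuca1 rose (1.26 ± 0.25, adjusted p = 0.0146), lost without resting replicates 4 or 5 at adjusted p of 0.0532 to 0.0691 and with a fit of the compared groups alone at adjusted p = 0.0589, as did Man2b1 (0.72 ± 0.19, adjusted p = 0.0386), lost without TEPP-46 replicates 4 or 5, control replicates 1, 4 or 5 or resting replicates 1, 4 or 5 at adjusted p of 0.054 to 0.15 and with no filter on low counts or a fit of the compared groups alone at adjusted p of 0.0863 to 0.123.

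Of 21 other membrane and trafficking genes, 5 rose and 2 fell with TEPP-46, with a median of 0.61, and 4 rose and 3 fell in control over resting cells, with a median of -0.22. These are 23.8% and 9.52% beside 9.72% and 6.43% of all genes with TEPP-46, and 19% and 14.3% beside 15.5% and 15.8% in control over resting cells. With any 1 control library or TEPP-46 replicate 5 left out, 0 rose and 1 fell with TEPP-46, 1 fell without resting replicate 5 or TEPP-46 replicate 4, and 8 rose without TEPP-46 replicate 1. Without control replicate 1 or 5 or resting replicate 4, 2 rose and 1 fell in control over resting cells, 3 rose and 1 fell without control replicate 4, and 2 rose and 2 fell without resting replicate 5. Sort1, a sorting receptor, had 0 counts in TEPP-46 libraries against 80 in control libraries, at least 19.9-fold lower against a floor of 3 counts over the group (edgeR's quasi-likelihood test, adjusted p = 0.00644). Sort1 rose in control over resting cells (3.21 ± 0.68, adjusted p = 0.00885). The cation channel gene Tpcn2 rose with TEPP-46 (1.40 ± 0.35, adjusted p = 0.0246), lost without TEPP-46 replicate 5 or control replicates 1, 4 or 5 at adjusted p of 0.0857 to 0.1 and with a fit of the compared groups alone at adjusted p = 0.0548. Laptm5, a lysosomal protein of blood cells that limits T cell receptor levels, rose too (1.01 ± 0.26, adjusted p = 0.028), lost without TEPP-46 replicate 5 or control replicates 1, 4 or 5 at adjusted p of 0.0899 to 0.113. The subunits of the enzyme that tags hydrolases with mannose phosphate moved apart in control over resting cells, where Gnptab rose (1.07 ± 0.21, adjusted p = 0.00442) and Gnptg fell (-1.44 ± 0.23, adjusted p = 0.00179). Gnptab (1.39 ± 0.21, adjusted p = 0.00451) and the progranulin gene Grn (1.30 ± 0.22, adjusted p = 0.00777) rose in TEPP-46 over resting cells.

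Of 10 other V-ATPase genes tested, 1 rose and 0 fell with TEPP-46 (median 0.21), and 0 rose and 3 fell in control over resting cells (median -0.33). The rise of 1 in 10 is close to the 9.72% of all genes. Of all genes, 15.8% fell in control over resting cells. With TEPP-46, 2 rose without resting replicate 1, 3 rose without TEPP-46 replicate 4, 2 rose and 2 fell without TEPP-46 replicate 1, and 0 rose without any 1 control library or TEPP-46 replicate 5. In control over resting cells, 2 fell without any 1 resting or control library, and 1 rose and 5 fell without TEPP-46 replicate 4. Atp6v0a2, a membrane subunit, rose with TEPP-46 (0.92 ± 0.19, adjusted p = 0.014), lost without TEPP-46 replicate 5 or control replicates 1, 4 or 5 at adjusted p of 0.0503 to 0.0814, and fell in control over resting cells (-1.42 ± 0.20, adjusted p = 0.00101). The accessory gene Atp6ap1 (-1.21 ± 0.21, adjusted p = 0.00231) and Atp6v1c1 (-0.65 ± 0.20, adjusted p = 0.0352) fell in control over resting cells, the call of Atp6v1c1 being lost without control replicates 1, 4 or 5 or resting replicates 1, 4 or 5 at adjusted p of 0.06 to 0.141 and with total counts as the only scaling or no filter on low counts at adjusted p of 0.0591 to 0.113. Tcirg1, another membrane subunit, rose in TEPP-46 over resting cells (0.68 ± 0.18, adjusted p = 0.0407), lost without TEPP-46 replicates 4 or 5, control replicates 1, 4 or 5 or resting replicates 1, 4 or 5 at adjusted p of 0.053 to 0.154 and with total counts as the only scaling, no filter on low counts or a fit of the compared groups alone at adjusted p of 0.052 to 0.136.

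Of 21 genes of mTORC1 and its Rag machinery tested, 1 rose and 0 fell with TEPP-46 (median 0.25), and 2 rose and 2 fell in control over resting cells (median -0.24). These shares, 4.76% and 0% with TEPP-46 and 9.52% each way in control over resting cells, are below the 9.72% and 6.43%, and the 15.5% and 15.8%, of all genes. Without TEPP-46 replicate 1, 3 rose and 1 fell with TEPP-46, and 2 rose and 4 fell in control over resting cells without TEPP-46 replicate 4. With any 1 control library or TEPP-46 replicate 5 left out, 0 rose with TEPP-46. The gene that rose with TEPP-46 was Castor1, an arginine sensor that restrains mTORC1, which averaged 57.2 ± 17.6 CPM against 23.6 ± 3.90 CPM in control cells (1.28 ± 0.28, adjusted p = 0.0169) and 16.9 ± 2.56 CPM in resting cells (1.76 ± 0.29, adjusted p = 0.00632 for TEPP-46 over resting). The call against control cells was lost without TEPP-46 replicate 5 or control replicates 1, 4 or 5 at adjusted p of 0.0547 to 0.0802. In control over resting cells Sesn2, a stress-induced leucine sensor (1.98 ± 0.47, adjusted p = 0.0102), and the Rag gene Rragc (1.14 ± 0.32, adjusted p = 0.0209) rose, the call of Rragc being lost without control replicates 1 or 4 or resting replicate 4 at adjusted p of 0.065 to 0.0843. Ywhaz, a phosphoserine-binding adaptor, fell (-0.81 ± 0.18, adjusted p = 0.00773). With TEPP-46, Rragc, which encodes the Rag GTPase most like that of Rragd, stood at -1.01 ± 0.32, adjusted p = 0.0546, and it passed without TEPP-46 replicates 1 or 4 at adjusted p of 0.0415 to 0.049 and with DESeq2, limma-voom or total counts as the only scaling at adjusted p of 0.0182 to 0.0462.

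Of 26 autophagy genes, 6 rose and 0 fell with TEPP-46 (median 0.34), and 2 rose and 6 fell in control over resting cells (median -0.42). These are 23.1% and 0% beside 9.72% and 6.43% of all genes with TEPP-46, and 7.69% and 23.1% beside 15.5% and 15.8% in control over resting cells. With any 1 control library or TEPP-46 replicate 5 left out, 1 rose with TEPP-46, without resting replicate 4 the count was 2, and without resting replicate 5 or TEPP-46 replicate 4 it was 3. In control over resting cells, 2 fell without any 1 control library or resting replicate 4, and 3 without resting replicate 5. Without resting replicate 1 and TEPP-46 replicate 4, 5 rose and 7 fell there, and 5 rose and 1 fell with TEPP-46. Map1lc3b, the conjugated protein LC3B of autophagosomes, had 329.5, 428 and 436 CPM in TEPP-46, 171, 175 and 180.5 CPM in control and 759, 382 and 426 CPM in resting libraries. Control libraries were the lowest. It rose with TEPP-46 (1.18 ± 0.27, adjusted p = 0.0192), lost without TEPP-46 replicate 5 or control replicates 1, 4 or 5 at adjusted p of 0.0695 to 0.079, and fell in control over resting cells (-1.57 ± 0.27, adjusted p = 0.00251). Vps33a, of the complex that tethers autophagosomes to lysosomes, rose with TEPP-46 (1.47 ± 0.25, adjusted p = 0.00681) and fell in control over resting cells (-1.12 ± 0.25, adjusted p = 0.00832). Gabarapl2 rose with TEPP-46 (0.80 ± 0.23, adjusted p = 0.0405), lost without TEPP-46 replicate 5, control replicates 1, 4 or 5 or resting replicates 4 or 5 at adjusted p of 0.0668 to 0.17 and with total counts as the only scaling, no filter on low counts or a fit of the compared groups alone at adjusted p of 0.068 to 0.0895. Gabarapl1, of the same protein family, rose in control (1.96 ± 0.41, adjusted p = 0.00633) and in TEPP-46 cells (1.66 ± 0.41, adjusted p = 0.0323) over resting cells, the second call lost without TEPP-46 replicates 1 or 5, control replicates 1, 4 or 5 or resting replicates 4 or 5 at adjusted p of 0.0553 to 0.119 and with limma-voom or a fit of the compared groups alone at adjusted p of 0.0508 to 0.112. Gabarapl1 shares 570 of its 2013 exonic bases with 1700101I11Rik on the other strand, which leaves its counts uncertain. Map1lc3a fell in TEPP-46 over resting cells (-1.78 ± 0.46, adjusted p = 0.0367), lost without TEPP-46 replicates 4 or 5, control replicates 4 or 5 or resting replicates 1, 4 or 5 at adjusted p of 0.0532 to 0.0967 and with limma-voom or a fit of the compared groups alone at adjusted p of 0.081 to 0.093.

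**Figure D5:**
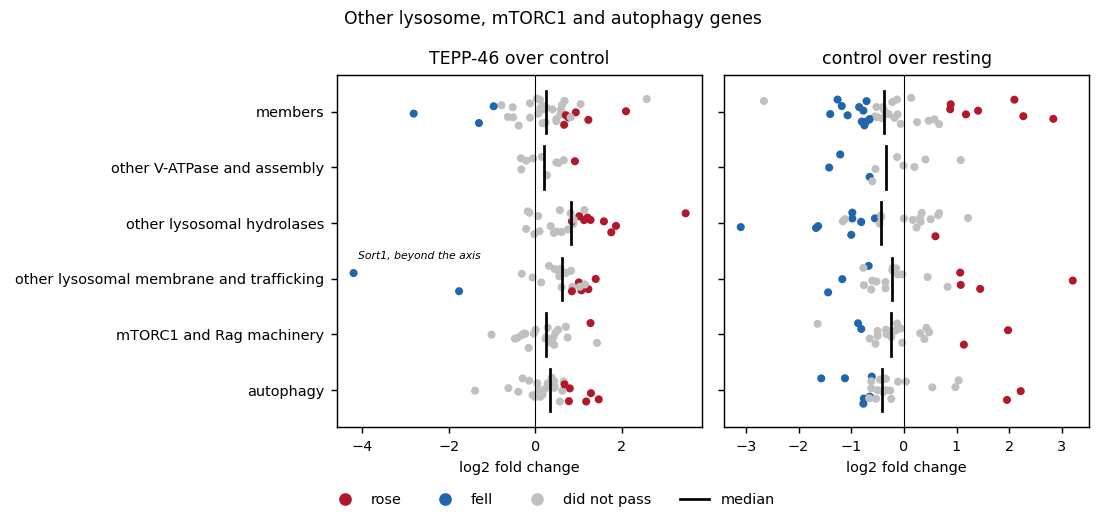
Log2 fold changes of the 37 listed genes and of 5 further groups of pathway genes, for TEPP-46 over control (left) and control over resting cells (right). Points are genes, coloured by call at an adjusted p below 0.05, and black bars are medians. Among other hydrolases 9 points are called higher with TEPP-46 and 0 lower. Sort1, with 0 counts in TEPP-46 libraries, is drawn at the left edge because its fitted value lies beyond the axis.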

How the data were processed

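RNA of 9 samples of mouse spleen CD4+ T cells was sequenced after preparation with a NEBNext low-input kit, per the labels' protocols. The values are raw read counts per Ensembl gene as deposited by the authors. Per the submitters' processing notes, the genome build was GRCm38 and DESeq2 was among the tools; versions, aligner, counting program and annotation release are not given here. Of 47937 identifiers, 47310 were paired with a GENCODE M21 symbol, which also gave positions.

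Genes were kept by filterByExpr (minimum count 10, minimum total 15), scaled by TMM and fitted with edgeR 4.0.16 (quasi-likelihood, 1 fit of all 9 libraries, 6 residual degrees of freedom, no block) in R 4.3.3. The common dispersion was 0.109 (square root 0.33). The SE of a log2 fold change was its size divided by the square root of the F statistic. The fit was tested on simulated data for control over resting cells alone, with 1 dispersion per gene in all groups. The wider spread among TEPP-46 libraries was not simulated. Alternatives were DESeq2 1.42.0, limma-voom (limma 3.58.1), RLE scaling, total counts only, no filter, a stricter filter, a fit of the compared groups alone, a replicate block, each library left out, and, chosen after seeing the data, resting replicate 1 and TEPP-46 replicate 4 left out together. No library pair within a group agreed within sampling noise (chi-square per gene 4.03 to 56.1). TPM used merged exon lengths. Promoter windows are RefSeq's for GRCm38.p6.

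The 37 genes, the other pathway lists and the marker lists were chosen with earlier results of these data known. All listed genes are named, and up to 3 genes per further list and comparison, those past the threshold with the lowest adjusted p; 1 gene that this rule names is not reported here. Where a gene is given as lost or gained under a setting, that setting changed its side of the threshold.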

Additional observations from a re-analysis of the deposited data

How the results depend on the processing

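Of the listed genes that passed, 8 of 18 in control over resting cells and 2 of 9 with TEPP-46 (Rragd and Ctsa) passed under every setting, and 0 of 3 did in TEPP-46 over resting cells. None of them changed direction under any setting. Among listed genes that did not pass, 6, 8 and 15 changed sign in some setting in control over resting cells, with TEPP-46, and in TEPP-46 over resting cells. With total counts as the only scaling, 7 listed genes fell in control over resting cells and 3 rose with TEPP-46, and with RLE scaling 3 rose with TEPP-46. DESeq2 called 3057 genes with TEPP-46 and 2090 in TEPP-46 over resting cells, 6 listed genes rising in the second, where edgeR called 2025 and 1289. A fit of only the groups compared called 400 genes in TEPP-46 over resting cells, with 0 listed genes rising and 0 falling, and with no filter 0 listed genes fell there. Without resting replicate 1 and TEPP-46 replicate 4, 5084, 2758 and 1938 genes were called in control over resting cells, with TEPP-46 and in TEPP-46 over resting cells. Then 5 listed genes fell with TEPP-46, and 5 rose and 0 fell over resting cells. With TEPP-46, this setting added Lamp2, Npc2 and Sqstm1 to the rises and Cd63 and Gaa to the falls. Over resting cells, TEPP-46 raised Tfe3, Fnip1, Lamp2, Npc1 and Npc2, and the calls of Glb1 and Lipa were lost. In control over resting cells, Npc1, Gla, Ctsh, Atp6v0e and Atp6v1h were gained and Atp6v0d1 was lost. The cause of these differences was not tested.

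With each library left out in turn, the genes called ranged over 2316 to 5194 in control over resting cells, 395 to 4407 with TEPP-46 and 426 to 1897 in TEPP-46 over resting cells. Listed genes that rose numbered 4 to 8, 1 to 12 and 0 to 3, and those that fell 4 to 13, 1 to 4 and 0 to 1, in the same order of comparisons. The cause of these changes was not tested.

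Same-numbered libraries of different groups did not deviate together (correlations of deviations -0.12 to 0.09), so the numbers were not taken as a pairing. With the replicate block, 3339, 1384 and 705 genes were called in the 3 comparisons. Listed genes then numbered 7 rising and 8 falling in control over resting cells, 3 and 2 with TEPP-46, and 1 and 0 in TEPP-46 over resting cells. Calls lost or gained with the block are given only as these counts and were left out of the gene-by-gene accounts above. Depth limits the low genes: Mitf had as few as 5 counts in a library and Ctsh as few as 1.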
